A study of Zea mays with 21 samples.

Results

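Zm00001d001909, listed in the count table as gene:Zm00001d001909, is 1 of 50142 gene IDs counted in leaves and endosperm of maize (Zea mays). It was selected on its counts in leaf, which were lower in every zb10 leaf group than in the matching wild-type (WT) leaf, so those leaf differences are given as a description, with no test of this gene. The series describes zb10 as a loss-of-function mutant of ZmPTOX, the plastid terminal oxidase, with zebra-striped leaves and white kernels. Zm00001d001909 is a candidate for that gene, but no source used here ties this ID to a name (0 of the 50142 IDs matched the reference gene table), so it is called by its ID throughout and no sequence is shown for it.

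As background, a plastid terminal oxidase is a membrane-associated enzyme of plastids that passes electrons from plastoquinol to oxygen, forming water. Phytoene and zeta-carotene desaturation, early steps of carotenoid synthesis, hand their electrons to plastoquinone, and the oxidase keeps that pool able to accept them while the photosynthetic chain is still being built. In Arabidopsis, loss of this enzyme in the immutans mutant gives leaves with green and white sectors, in which phytoene builds up in the white tissue.

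The 21 libraries form 7 groups of 3 biological replicates. At the 4th-leaf stage (V4) they are the white section of zb10 leaves, the green section of zb10 leaves, and WT leaf. At the 9th-leaf stage (V9) they are zb10 leaf and WT leaf, with no section named in the labels. In the kernel they are zb10 and WT endosperm at 16 days after pollination (16 DAP), the starchy storage tissue that feeds the embryo. The labels give neither the allele of zb10 nor the inbred background of either genotype, and treatments other than the stage are not listed. Library totals ran from 28237880 to 123050963 counts, of which WT V9 replicate 1 had the highest and the next library 53092962. Levels are given as CPM, the share of a library's counts that fell on the gene, after TMM scaling, which adjusts library sizes so that most genes agree between libraries. Because the IDs carry no names, known leaf and endosperm marker genes could not be looked up. In bulk RNA, fewer cells that express a gene and less of its RNA per cell cannot be told apart.

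At V4, Zm00001d001909 had 4.66, 4.71 and 4.23 CPM in the white section of zb10 leaves, from 174, 160 and 150 counts. The green section of zb10 leaves had 7.79, 7.23 and 7.07 CPM, from 237, 249 and 268 counts. WT leaf had 63.1, 65.5 and 55.8 CPM, from 2472, 2323 and 1984 counts. Every white library was thus below every green library, and every green library was far below the lowest WT library. As group means the level was 4.53 ± 0.266 CPM in the white section, 7.36 ± 0.376 CPM in the green section and 61.5 ± 5.08 CPM in WT (SD, n = 3 each). The white section held 7.38% of the WT mean and the green section 12% of it, and both percentages share the same 3 WT libraries. Transcripts of this gene were therefore present in all 6 zb10 libraries of this stage, at 150 counts or more.

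At V9, zb10 leaf had 13.5, 16.1 and 15.4 CPM of Zm00001d001909, from 788, 762 and 645 counts. WT leaf had 58.2, 84.9 and 67.4 CPM, from 7790, 2759 and 3018 counts. The groups did not overlap, and the highest zb10 library stood at 27.7% of the lowest WT library. The mean was 15 ± 1.37 CPM in zb10 and 70.2 ± 13.5 CPM in WT (SD, n = 3 each), so zb10 held 21.4% of the WT mean. WT replicate 2 was the highest library of the series for this gene, and WT V9 had the widest absolute spread of the 7 groups.

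**Figure D1:**
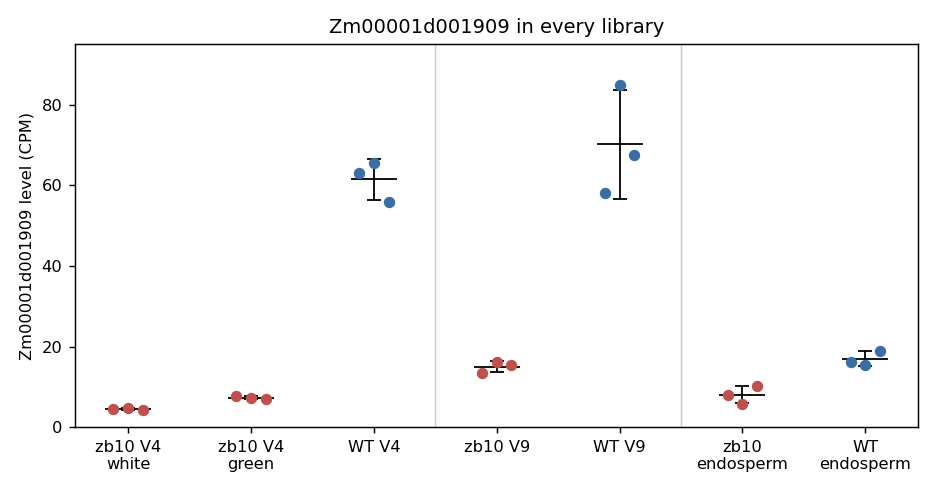
Level of Zm00001d001909 in CPM (y axis, linear) in each of the 7 groups (x axis), with 1 point per library, a horizontal bar for the group mean and whiskers for 1 SD (n = 3). Red points are zb10 and blue points WT; the WT leaf libraries sit between 55.8 and 84.9 CPM, and no zb10 library exceeds 16.1 CPM.

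Over the 3 leaf comparisons the fitted log2 fold changes of zb10 against WT were -2.22 (SE 0.18) at V9, -3.06 (SE 0.1) for the green part of the V4 leaf and -3.75 (SE 0.1) for its white part. To place the rule that chose the gene, 24625 genes were tested in all 3 leaf comparisons, and 18.2% of them had a lower fitted level in zb10 in each. In 102 genes, 0.414% of those tested, every zb10 library was lower than every WT library in each of the 3 comparisons. In 17 of the 102 the smallest of the 3 reductions was still more than 2-fold. Ranked by that smallest reduction over all 24625 genes, Zm00001d001909 came 7th, at -2.22 on the log2 scale. Zm00001d052985 stood just before it at -2.60 and Zea_mays_newGene_5341 just after it at -2.18. Nothing is read from this rank, because it uses the contrasts that chose the gene.

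Endosperm was not part of the rule, and there the level in zb10 was about 0.49 of that in WT by the fitted fold change. Whether this reduction differed from those in leaf was not tested, since the leaf differences chose the gene. Endosperm of zb10 had 8.15, 5.92 and 10.2 CPM of Zm00001d001909, from 262, 156 and 248 counts. Endosperm of WT had 16.3, 15.5 and 19 CPM, from 507, 438 and 692 counts. All 3 zb10 libraries were below all 3 WT libraries, and the relative spread was wider in zb10 (26.3% of the mean) than in WT (10.7%). The share of all genes separated in this way in endosperm was not counted. Of the 25366 genes tested there, 1.7% had a fitted log2 fold change at least as far below 0. The mean was 8.08 ± 2.13 CPM in zb10 and 17 ± 1.82 CPM in WT (SD, n = 3 each), so zb10 endosperm held 47.7% of the WT mean.

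With the 6 endosperm libraries alone the difference did not pass after adjustment over all genes (log2 fold change -1.03, SE 0.2, 95% interval -1.48 to -0.58, unadjusted p = 0.00067, Benjamini-Hochberg adjusted p = 0.45 over 25366 genes, edgeR quasi-likelihood test). In that comparison 9 genes (0.0355% of those tested) passed in either direction, and 0.0158% of the genes tested were called lower. The direction was the same in all 13 alternatives, with log2 fold changes of -1.24 to -0.86. The call depended on the fit: with all 21 libraries in the edgeR fit the gene passed (adjusted p = 0.011), as it did with DESeq2 (adjusted p = 0.00096), while adjusted p over all alternatives ran from 0.00096 to 0.8.

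As a measure of leaf RNA in these libraries, 359 genes with at least 100 CPM in WT V9 leaf and at least 100-fold less in both endosperm groups summed to 478, 269 and 343 CPM in zb10 endosperm and to 489, 247 and 515 CPM in WT endosperm. Because the set was chosen for a low level in endosperm, its sums are bounded by that choice, and the part of leaf RNA in the level of Zm00001d001909 was not tested.

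**Figure D2:**
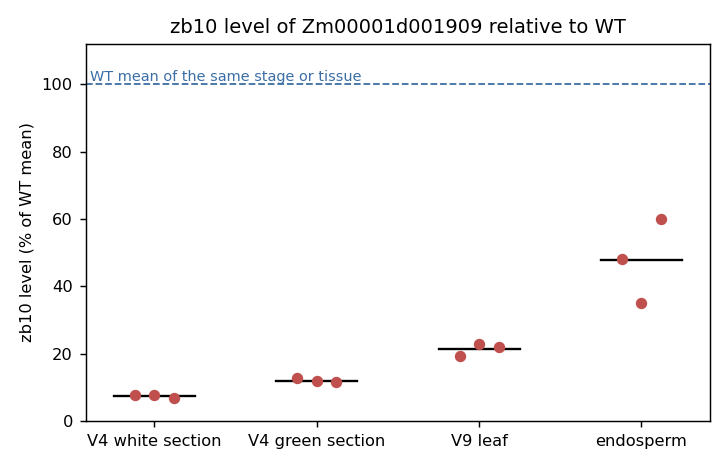
Level of Zm00001d001909 in each zb10 library as a percent of the mean of the 3 WT libraries of the same stage or tissue (y axis, linear), for the V4 white section, the V4 green section, V9 leaf and endosperm (x axis). Bars mark the percentages from group means, 7.38%, 12%, 21.4% and 47.7%, and the dashed line marks the WT mean.

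Within zb10 leaves at V4 the gene was lower in the white than in the green section. Both sections entered the rule through their difference from WT, so this contrast is not free of the choice. The level fell to 4.53 CPM in the white section, against 7.36 CPM in the green section. On the log2 scale the difference was -0.69 (SE 0.1, 95% interval -0.91 to -0.46, adjusted p = 0.001, edgeR). That fit did not pair the sections by replicate number. With a replicate block the log2 fold change was again -0.69 (adjusted p = 0.0022, edgeR). The white libraries ran from 4.23 to 4.71 CPM and the green libraries from 7.07 to 7.79 CPM, a gap of 2.36 CPM. This comparison called 10.9% of the genes tested lower, and 12.8% of all genes had a log2 fold change at least as far below 0. A call at this size was thus common between the sections. The gene passed in all 14 alternatives, with log2 fold changes of -0.71 to -0.55 and adjusted p of 1.1e-05 to 0.02.

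Between the leaf stages the gene differed in zb10, while the difference in WT did not pass. The leaf libraries compared here had entered the rule, so these contrasts are not free of the choice. In zb10 the level was 15 CPM at V9 and 7.36 CPM in the V4 green section, 2.11-fold higher at V9 (95% interval 1.73 to 2.57, log2 fold change 1.08, SE 0.13, adjusted p = 2e-05, edgeR over the 15 leaf libraries). All 3 V9 libraries were above all 3 green libraries. Since the V9 labels name no section, stage and the part of the leaf sampled change together here. The comparison called 23.4% of the 28513 genes tested higher, so a gain of this kind was widespread.

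In WT leaf the level was 70.2 CPM at V9 and 61.5 CPM at V4, with overlapping libraries. The difference did not pass (1.17-fold, 95% interval 0.97 to 1.41, adjusted p = 0.16, edgeR), in a comparison that called 23.3% of genes higher. This value moved with the library left out. Without WT V9 replicate 1, the deepest, the log2 fold change was 0.34 (adjusted p = 0.043, edgeR). Without WT V9 replicate 2, the highest, it was 0.03 (adjusted p = 0.85, edgeR). These were the ends of the range over the 6 fits with 1 library left out. A V4 library also moved the value, to 0.12 without WT V4 replicate 3 (adjusted p = 0.54, edgeR). Whether the stage difference itself differed between zb10 and WT was not tested, because that contrast equals the difference between leaf effects that chose the gene.

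Endosperm had less of the gene than V9 leaf in both genotypes. The V9 leaf libraries of both genotypes had entered the rule, so the sizes of these differences are not free of the choice. In zb10 it had 8.08 CPM in endosperm and 15 CPM in V9 leaf (log2 fold change -0.90, SE 0.2, 95% interval -1.34 to -0.47, adjusted p = 0.0013, edgeR). In WT it had 17 CPM in endosperm and 70.2 CPM in V9 leaf (log2 fold change -2.07, SE 0.2, 95% interval -2.50 to -1.64, adjusted p = 1.5e-06, edgeR). Libraries of the 2 tissues did not overlap in either genotype. These tissues differ widely: 37.4% of 30640 genes tested were called lower in zb10 endosperm than in zb10 V9 leaf, and 38.3% in WT. Both calls passed in all 14 alternatives tried for each.

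**Figure D3:**
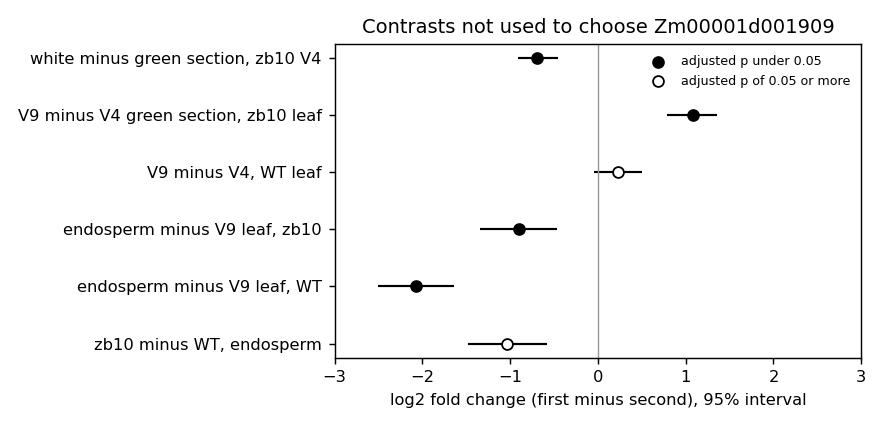
Fitted log2 fold change of Zm00001d001909 (x axis, first group minus second, with its 95% interval) in the 6 tested contrasts (y axis). None is a contrast of the rule, but all except zb10 minus WT in endosperm use leaf libraries that entered the rule. Filled points have an adjusted p under 0.05 and open points do not; the open points are V9 minus V4 in WT leaf (0.23) and zb10 minus WT in endosperm (-1.03).

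Ordered by group mean, the gene was highest in WT V9 leaf, followed by WT V4 leaf, WT endosperm, zb10 V9 leaf, zb10 endosperm, the zb10 V4 green section and the zb10 V4 white section. Neighbours in this order overlapped at 3 places. WT V9 and WT V4 leaf differed by 1.14-fold, WT endosperm and zb10 V9 leaf by 1.13-fold, and zb10 endosperm and the green section by 1.1-fold, each with overlapping libraries. Scaled by library size alone, both of the last 2 pairs changed places. The other neighbours were separated. The wide step was 3.63-fold, between WT V4 leaf and WT endosperm, where the lowest leaf library stood 36.8 CPM above the highest endosperm library. All 3 zb10 leaf groups and both endosperm groups thus lay below every WT leaf library.

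Likeness to Zm00001d001909 was measured as Pearson r of log2(CPM + 0.5) over the 21 libraries, among 32301 other genes. These libraries fall into 7 groups and share 2 genotypes and 2 tissues, so r mainly follows differences between groups and is given as a description only. The median r was -0.03 and the 99th percentile 0.59. The most alike gene was Zm00001d052985 (r = 0.889, Spearman's rho 0.77). Next came Zm00001d003674 (r = 0.881), Zm00001d002374 (r = 0.857), Zea_mays_newGene_2486 (r = 0.849) and Zm00001d048665 (r = 0.817). No r exceeded 0.9.

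Zm00001d052985 was also named for being called lower in all 3 leaf comparisons of zb10 with WT, a rule that 0.00812% of the 24625 genes met. These are the contrasts that chose Zm00001d001909, and nothing is read from that share. It had 1.31, 1.32 and 1.30 CPM in the V4 white section, 0.953, 1.02 and 1.66 CPM in the V4 green section, and 18.7, 23.5 and 18.5 CPM in WT V4 leaf. At V9 it had 2.07, 3.68 and 2.78 CPM in zb10 leaf and 19.8, 13.8 and 18.4 CPM in WT leaf. In endosperm it had 0.249, 0.190 and 0 CPM in zb10, from 8, 5 and 0 counts, and 1.51, 1.53 and 1.51 CPM in WT, from 47, 43 and 55 counts. Both genes therefore had their zb10 libraries below their WT libraries in every stage and tissue. Zm00001d052985 was named from these same libraries, so its values in the sections of the V4 leaf are given as a description only. There its white and green libraries overlapped (log2 fold change 0.12, SE 0.23), at lower counts than those of Zm00001d001909. Whether the 2 genes differed in this contrast was not tested.

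The other 4 of the 5 alike genes were rare transcripts. Their group means reached at most 1.52 CPM for Zm00001d003674, 3.1 CPM for Zm00001d002374, 1.28 CPM for Zea_mays_newGene_2486 and 1.25 CPM for Zm00001d048665, and several of their zb10 libraries had no count, so their r rests on few reads. Zm00001d003674 had 5 counts summed over the V4 white section, 0 over the green section and 167 over WT V4 leaf. Zm00001d002374 was higher at V9 in both genotypes. It was named for its likeness over these same libraries, so its fold changes are given as a description only. It had 1.29 ± 0.148 CPM in zb10 V9 leaf and 0.285 ± 0.0793 CPM in the zb10 V4 green section (SD, n = 3 each, log2 fold change 2.23). In WT it had 3.1 ± 0.202 CPM at V9 and 1.26 ± 0.103 CPM at V4 (SD, n = 3 each, log2 fold change 1.34). The log2 fold change of Zm00001d001909 between those WT groups was 0.23.

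Over the 15 leaf libraries alone, the 5 most alike genes were Zm00001d052985 (r = 0.966), Zea_mays_newGene_22140 (r = 0.929), Zm00001d003674 (r = 0.916), Zea_mays_newGene_2055 (r = 0.902) and Zm00001d002374 (r = 0.897), of which 3 were also among the 5 over all libraries. Among 30960 genes the median of this r was -0.01 and the 99th percentile 0.72, with 4 genes over 0.9 and 14 under -0.9. The leaf differences that chose the gene enter this r, so it is given as a description only. For Zea_mays_newGene_22140, r was 0.531 over all 21 libraries, with a higher level in endosperm than in V4 leaf. That locus had 7.68 ± 1.64 CPM in zb10 endosperm and 16.9 ± 5.83 CPM in WT endosperm, against 0.811 ± 0.975 CPM in zb10 V9 leaf and 7.89 ± 0.976 CPM in WT V9 leaf (SD, n = 3 each). Within endosperm its zb10 libraries were below its WT libraries, as for Zm00001d001909, and the difference did not pass (edgeR adjusted p = 0.7, log2 fold change -1.10, SE 0.3).

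At the other end, Zm00001d048663 had the lowest r (-0.913) and Zm00001d002338 the next (-0.894). Zm00001d048663 had 7.62 ± 1.07 CPM in the V4 white section, 7.59 ± 0.604 CPM in the green section, and 2.27 ± 0.11 CPM in WT V4 leaf (SD, n = 3 each). At V9 it had 4.76 ± 0.505 CPM in zb10 leaf and 2.34 ± 0.254 CPM in WT leaf (SD, n = 3 each). Like Zm00001d001909 with the sign turned, it was nearest to WT in V9 leaf among the leaf groups.

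**Figure D4:**
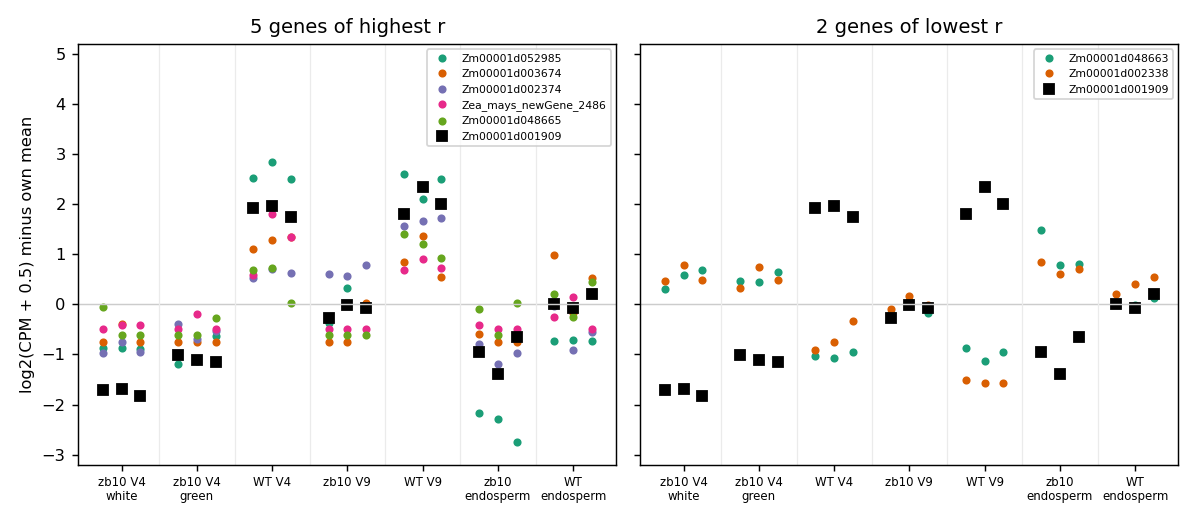
Log2(CPM + 0.5) of each gene minus its own mean over the 21 libraries (y axis), by group (x axis, 3 libraries each), for Zm00001d001909 (black squares) with the 5 genes of highest r on the left and the 2 genes of lowest r on the right (coloured points). The WT leaf libraries lie above each gene's own mean on the left and, for the 2 coloured genes, below it on the right.

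Of the 6 genes whose ID numbers lie within 3 of Zm00001d001909, Zm00001d001908 was the one with group means above 2.19 CPM. It had 81.5 ± 12.3 CPM in the V4 white section, 50.7 ± 5.56 CPM in the green section and 45.5 ± 4.51 CPM in WT V4 leaf (SD, n = 3 each). It rose in the white section against WT, as 16.6% of the genes tested did (log2 fold change 0.86, SE 0.13, adjusted p = 0.00097, edgeR), the opposite direction to Zm00001d001909. In the green section the log2 fold change was 0.16 (SE 0.13, adjusted p = 0.69). At V9 it had 44 ± 3.22 CPM in zb10 and 61 ± 5.01 CPM in WT (SD, n = 3 each). There its zb10 libraries were all below its WT libraries, as for Zm00001d001909, and the difference did not pass (edgeR adjusted p = 0.54, log2 fold change -0.46, SE 0.12). In endosperm the log2 fold change was 0.23 (SE 0.17, adjusted p = 0.92, edgeR).

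The other IDs in that range had few or no counts and did not pass in any comparison of zb10 with WT in which they were tested. At V9 the log2 fold change was -1.47 (SE 0.84) for Zm00001d001906, -1.09 (SE 0.54) for Zm00001d001907, -0.20 (SE 0.28) for Zm00001d001910 and 0 (SE 0.26) for Zm00001d001911. Zm00001d001906 was not tested at V4 or in endosperm for lack of counts, Zm00001d001907 not in endosperm, and Zm00001d001912 had no count in any library. Over the 21 libraries r with Zm00001d001909 was -0.08 to 0.332 for the 5 IDs with counts.

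**Figure D5:**
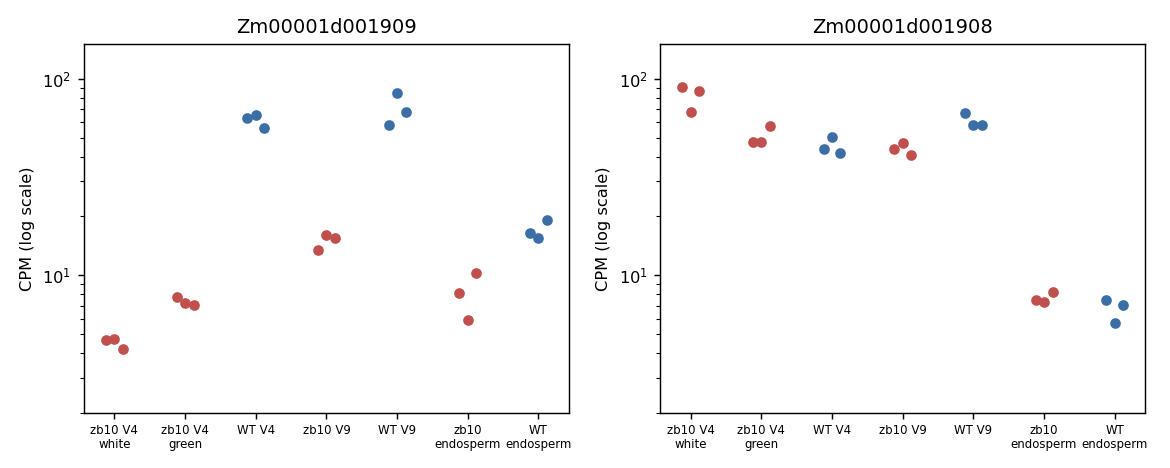
Level in CPM (y axis, log scale) of Zm00001d001909 (left) and of Zm00001d001908, the ID just below it (right), in each library (points) of the 7 groups (x axis), with zb10 in red and WT in blue. Zm00001d001909 has its zb10 points below its WT points in every stage and tissue, whereas Zm00001d001908 has its highest points in the V4 white section.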

How the data were processed

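RNA-seq counts per gene ID were used as the authors deposited them, in 1 table without normalization. A column RNA kit and a SMARTer mRNA library kit were used, per the labels' protocols. Which aligner, counter, genome build and annotation were applied, and how reads shared by near-identical copies were handled, is not given in the sources used here. The table's columns write the mutant as zb9 and the younger leaf as 3L, and each was matched to the labelled group that remained. All columns were used.

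The main test was edgeR 4.0.16 under R 4.3.3: the quasi-likelihood test with TMM scaling, after filterByExpr (minimum count 10, minimum total 15), with a Benjamini-Hochberg adjusted p under 0.05 across all genes in the fit. Section contrasts were fitted over the V4 libraries, stage contrasts over all leaf libraries, tissue contrasts over V9 leaf and endosperm, and endosperm genotypes alone. DESeq2 1.42.0 was an alternative. CPM used TMM factors from all 21 libraries. Each standard error was derived from the fold change and its F statistic. The fits and the likeness measure were also run on simulated data, with outcomes not given here. The likeness simulation placed near copies of a profile among unrelated genes. It had no groups of libraries, so it does not measure how r performs here. The gene's counts of 150 to 7790 per library set its precision.

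Named genes are the 5 of highest and 2 of lowest r over all libraries, the 5 of highest r over leaf libraries, IDs within 3 of the gene's number, and genes called lower in all 3 leaf comparisons. Planned lists of carotenoid, oxidase and marker genes were not used here, as 0 IDs matched by name. The gene, the lists and the tests were chosen with earlier results of these data known. P-values measure the spread between libraries that the series design calls biological replicates, and replicates of a group differed beyond sampling noise in every pair.

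Replicate numbers were checked as pairs by correlating deviations from group means across genes. Same-numbered white and green libraries correlated at 0.18, 0.17 and 0.37, so these numbers were taken to pair them; the pairing is inferred from the values, as the labels only number the samples. Each of the 3 white libraries also matched best the green library of its own number. In no other comparison checked did this hold for all 3 numbers.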

Additional observations from a re-analysis of the deposited data

How the results depend on the processing

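The direction of each of the 6 tested contrasts of Zm00001d001909 was the same in every alternative run (scaling, filter, DESeq2, libraries in the fit, replicate block, leaving out each library of the compared groups). In endosperm the call was gained with DESeq2 (log2 fold change -1.03) and with all 21 libraries in the fit (-1.07), and for V9 minus V4 in WT leaf without WT V9 replicate 1 (0.34, in a range of 0.03 to 0.34 over the libraries left out); the cause was not tested. The other 4 contrasts passed in every alternative. With the replicate block in edgeR, white minus green section gave -0.69 (adjusted p = 0.0022), endosperm gave -1.05 (adjusted p = 0.36), and no call on the gene changed. The block of the section fit also held the WT V4 libraries by number, and whether these pair with zb10 libraries was not checked. With library size only, the level was 5.12 CPM in the V4 white section and 14.4 CPM in WT endosperm, and the log2 ratio of white section to WT was -3.61. Zb10 V9 leaf then stood above WT endosperm, and the green section above zb10 endosperm. Leaving out zb10 endosperm replicate 3 also put the green section above zb10 endosperm. Without the 50 most abundant genes every level rose by construction, to 5.92, 9.42 and 78.6 CPM in the V4 white section, green section and WT, to 19.2 and 90 CPM in V9 zb10 and WT leaf, and to 10.5 and 22 CPM in zb10 and WT endosperm.

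The number of genes called between zb10 and WT endosperm moved from 9 to 27 without a filter, 118 with DESeq2, 15 with all libraries and 3 with the replicate block. Leaving out 1 library gave 0 to 13, with 0 by edgeR without WT replicate 3, where 1622 genes had an unadjusted p under 0.05. Of the 5 most alike genes, 0 stayed among the 5 by group means and 1 by Spearman's rho, against 4 or more in the other alternatives. In a block fit added after the data were seen, the leaf log2 fold changes were -3.74, -3.06 and -2.21 for the V4 white section, the V4 green section and V9. For the group levels no paired analysis was possible because they come from no test.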

Other observations

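Zm00001d048665 and Zm00001d048663, 2 apart in ID number, lay at opposite ends of the likeness to Zm00001d001909 (r = 0.817 and -0.913 over 21 libraries). Zm00001d048665 had 9, 5 and 66 counts summed over the V4 white section, the V4 green section and WT V4 leaf, and 0 and 290 counts in zb10 and WT V9 leaf. Zm00001d048663 had 811, 784 and 250 counts in the same V4 groups, and 702 and 517 counts in zb10 and WT V9 leaf. These sums are not scaled for library depth, which was highest in WT V9 replicate 1. As mean CPM in zb10 and WT V9 leaf, Zm00001d048663 had 4.76 and 2.34 and Zm00001d048665 had 0 and 1.25. Whether the 2 loci overlap or share reads was not tested.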
